A study of Sus scrofa with 8 samples.

Results

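Peroxisomes of hepatocytes shorten very-long-chain, branched-chain and dicarboxylic fatty acids and the side chain of bile acid precursors, work that mitochondria do poorly or not at all. In each round an acyl-CoA oxidase makes the first double bond and releases hydrogen peroxide, a bifunctional enzyme adds water and oxidises the product, and a thiolase cuts off acetyl-CoA. The shortened chain then leaves the organelle as a carnitine ester or free acid, catalase removes the peroxide, and diphosphatases of the Nudix family break down coenzyme A inside the organelle.

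The enzymes described here were given as a list of 7 genes: EHHADH and HSD17B4 (the bifunctional enzymes), ACAA1 (the thiolase), AMACR (the racemase that prepares branched chains), CROT (the carnitine octanoyltransferase), CAT (catalase) and LOC100519193, annotated as similar to the peroxisomal coenzyme A diphosphatase NUDT7. A gene counted as a member when a probe set, the group of short oligonucleotides that measures a transcript, carried its symbol. By this rule 5 of the 7 genes were found, each with 1 probe set, among 8144 genes and 23999 probe sets tested. These were HSD17B4, ACAA1, AMACR, CAT and LOC100519193, and EHHADH and CROT were not analysed here. The rule itself uses no measured value, but the list was drawn up with earlier results of these data known, so a member's call is no independent evidence. Of the 5, HSD17B4, AMACR, CAT and LOC100519193 had a probe set with a symbol of their own. The ACAA1 probe set also named LOC100517370, a gene described as similar to peroxisomal 3-ketoacyl-CoA thiolase, so these paralogous genes could not be separated.

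Liver RNA of lactating sows was set against that of non-lactating sows on Affymetrix Porcine arrays to find transcripts that differ between the states. Each group had 8 sows, and equal amounts of RNA from 2 sows made each of the 4 pools per group, so a pool of 2 animals is the replicate and n counts pools. The labels name no breed, age, parity or day of lactation. All values are log2 signals, on which a difference of 1 is a 2-fold change, and signals of different probe sets were not compared with each other.

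Mean log2 signals of the 8 arrays lay between 6.78 and 6.79, and arrays correlated across probe sets at 0.991 to 0.994 among lactating pools, 0.992 to 0.994 among non-lactating pools and 0.984 to 0.991 from one state to the other. The hepatocyte markers were bright in both groups, with means per pool of 14.47 to 14.57 in lactating and 14.43 to 14.51 in non-lactating pools over 8 of the 9 listed genes, of which 1, SERPINA1, passed the test and was lower in lactating pools. The endothelial markers had mean signals of 7.27 to 7.41 in lactating and 7.57 to 7.69 in non-lactating pools, and 4 of 7 were lower. Of the stellate cell and fibroblast markers 2 of 6 were lower, with mean signals of 8.11 to 8.49 in lactating and 8.38 to 8.75 in non-lactating pools. KLRK1 was the 1 of 4 T and NK cell markers that was lower, and none of 4 macrophage and 3 cholangiocyte markers passed. By the same test 2.52% of all genes were lower. No marker is at 0, since these log2 signals have no zero. Some were dim, with mean signals of 3.96 for COL1A1, 4.62 for SOX9, 4.92 for KDR, 5.07 for CD2 and 5.08 for MARCO. A dim marker that did not pass says little about its cell type. The part of these cell types in the results below was not tested, and fewer cells of a type and less RNA per cell cannot be told apart in such samples.

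A measure of RNA quality came from the control transcripts, whose probe sets lie at the 3′ and the 5′ end of the same message. Their mean 3′ minus 5′ log2 signal, averaged over GAPDH, actin and EF1a, was 3.90, 4.00, 3.75 and 3.34 in lactating pools 1 to 4 and 5.02, 4.21, 4.14 and 4.49 in non-lactating pools 1 to 4. The difference was -0.72, with no overlap and an exact permutation p of 0.0286, 2-sided, the smallest that 4 pools against 4 can give. Of the 3 transcripts only GAPDH separated the groups, with a difference of -1.08 (exact permutation p = 0.0286). Actin (-0.62, exact permutation p = 0.0571) and EF1a (-0.47, exact permutation p = 0.0857) overlapped. Non-lactating pool 1 had the highest value of each transcript.

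Of the 5 measured enzymes 1, the NUDT7-like diphosphatase, rose in lactating pools, none fell, and the others did not pass the test. The test was limma with Benjamini-Hochberg adjustment over 23999 probe sets and an adjusted p below 0.05, by which 6.13% of all genes were higher and 2.52% lower in lactating pools, and 6.85% of all probe sets changed, with 3.74% higher. A count of 1 in 5 is too small to be set apart from that background. The differences (lactating minus non-lactating) ran from -0.08 to 1.09 with a median of 0.29, beside a median of 0.01 over all 8144 genes. Of the 5 differences 3 were positive and 2 negative, and 52.6% of all genes were positive. Without the shared ACAA1 probe set the count was 1 of 4 and the median 0.14. Without non-lactating pool 1 the median of the 5 was -0.0021, and without lactating pool 4 it was 0.04.

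**Figure D1:**
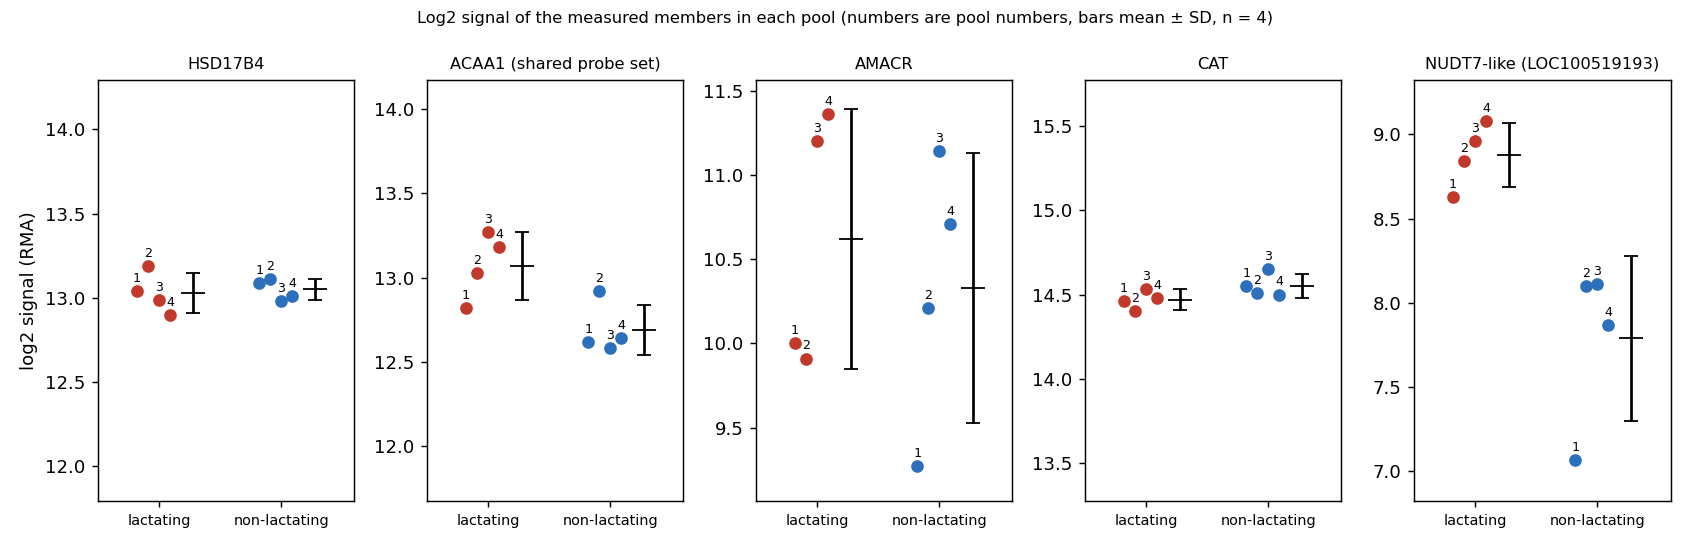
Log2 signal (vertical axis, each panel spanning the same number of log2 units) of the 5 measured enzymes in 4 lactating and 4 non-lactating pools, with bars for mean ± SD. The groups do not overlap for the NUDT7-like gene, AMACR is widely spread over overlapping ranges, and HSD17B4 and CAT hardly vary.

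HSD17B4 encodes the D-bifunctional protein, which carries out the hydration and dehydrogenation steps of the cycle for very-long-chain and branched-chain substrates. Its signals were 13.04, 13.19, 12.99 and 12.90 in lactating pools, against 13.09, 13.11, 12.98 and 13.01 in non-lactating pools. The groups overlapped fully, since the highest and the lowest pool were both lactating. Means were 13.03 ± 0.12 in lactating and 13.05 ± 0.06 in non-lactating pools (SD, n = 4 each), a difference of -0.02 ± 0.08 (SE). The 95% interval of the ratio ran from 0.872 to 1.12 (limma adjusted p = 0.937). The deposited alignment places this probe set on chromosome 2, 111755399 to 111844483, plus strand. Here and below, positions are given as in the deposited table, whose assembly is not stated there by name.

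ACAA1, the thiolase that releases acetyl-CoA at the end of each round, had signals of 12.82, 13.03, 13.27 and 13.18 in lactating pools, against 12.62, 12.92, 12.58 and 12.64 in non-lactating pools. Lactating pool 1 lay below non-lactating pool 2, and every other lactating pool lay above all non-lactating ones. Means were 13.07 ± 0.20 in lactating and 12.69 ± 0.15 in non-lactating pools (SD, n = 4 each), and the difference was 0.38 ± 0.12, or 1.30-fold (95% interval 1.09 to 1.56). It did not pass adjustment (unadjusted p = 0.0079, adjusted p = 0.0772, limma). Without lactating pool 1 the difference was 0.47 and passed, with an adjusted p of 0.0395 (limma), and it did not pass with any other pool left out. Per the array design, 11 probes of the set match a cDNA and 9 match each of the paralogous genes. The deposited alignment places the set at 2 positions on the minus strand of chromosome 13, 18774208 to 18778638 and 18895594 to 18900159.

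AMACR, alpha-methylacyl-CoA racemase, turns branched-chain and bile acid intermediates into the form that the peroxisomal oxidases accept. Its signals were 10.00, 9.91, 11.20 and 11.36 in lactating pools, against 9.27, 10.21, 11.14 and 10.71 in non-lactating pools. In the lactating group pools 1 and 2 were low and pools 3 and 4 high, and the non-lactating pools lay across an overlapping range. The spread was wide: the 4 non-lactating pools covered a 3.66-fold range, and the SD within groups of 0.79 was larger than that of 99.6% of all probe sets. Means were 10.62 ± 0.77 in lactating and 10.33 ± 0.80 in non-lactating pools (SD, n = 4 each). The difference of 0.29 ± 0.44 corresponds to a ratio of 1.22 with a 95% interval of 0.62 to 2.40 (limma adjusted p = 0.765), so the interval holds sizeable differences in both directions. Without non-lactating pool 1 the difference turned to -0.07. The probe set aligns to chromosome 16, 17521557 to 17535971, minus strand.

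CAT, catalase, breaks down the hydrogen peroxide that the oxidases release. Its signals were 14.46, 14.40, 14.53 and 14.48 in lactating pools, against 14.55, 14.51, 14.65 and 14.50 in non-lactating pools. The groups overlapped within a narrow band, and the SD within groups was larger than that of only 4.27% of all probe sets. Means were 14.47 ± 0.06 in lactating and 14.55 ± 0.07 in non-lactating pools (SD, n = 4 each), a difference of -0.08 ± 0.07. The ratio was 0.943 with a 95% interval of 0.845 to 1.05 (limma adjusted p = 0.537). The probe set aligns to chromosome 2, 24918171 to 24957715, minus strand.

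LOC100519193 is annotated as similar to NUDT7, which in mouse liver hydrolyses coenzyme A and its esters within peroxisomes. Its signals were 8.63, 8.84, 8.96 and 9.08 in lactating pools, against 7.07, 8.10, 8.11 and 7.87 in non-lactating pools. Every lactating pool lay above every non-lactating pool, and non-lactating pool 1 lay well below the other 3 of its group. Means were 8.88 ± 0.19 in lactating and 7.79 ± 0.49 in non-lactating pools (SD, n = 4 each). The gene rose by 1.09 ± 0.21, or 2.13-fold (95% interval 1.53 to 2.97, limma adjusted p = 0.0216). Taken with its sign, this difference was larger than that of 99.8% of all probe sets. With no overlap between the groups, 8.29% of probe sets and 1046 of the 8144 genes were higher in lactating pools. The call was close to the threshold: it held with 5 of the 8 pools left out in turn, and the adjusted p was 0.0528 with lactating pool 3 left out, 0.0582 with lactating pool 4 and 0.0502 with non-lactating pool 4. With non-lactating pool 1 left out the difference was 0.85 and still passed. The probe set aligns to chromosome 6, 7264742 to 7270627, minus strand.

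The enzymes were also set against each other by the difference between their differences, over 10 pairs and with p-values of exact permutation tests adjusted over the 10. Less the difference of LOC100519193, that of CAT was -1.18 ± 0.26, that of HSD17B4 -1.11 ± 0.29 and that of ACAA1 -0.71 ± 0.23 (SE), each with no overlap between the groups. Each of these 3 pairs had the smallest exact p that 4 pools against 4 allow, 0.0286, and an adjusted p of 0.0952. ACAA1 less CAT was 0.47 ± 0.13 and HSD17B4 less ACAA1 was -0.40 ± 0.15, with an exact p of 0.0571 and an adjusted p of 0.114 for each. The other 5 pairs had an exact p between 0.171 and 0.857, and none of the 10 passed after adjustment. With only 3 pairs at the smallest possible exact p, these could not pass adjustment over 10 pairs however large their differences. Not passing therefore does not show that the enzymes changed alike.

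Within the groups the enzymes did not move as 1 block from pool to pool. As deviations from the group means over the 8 pools, AMACR and LOC100519193 ran together (r = 0.79), AMACR and HSD17B4 ran opposite (r = -0.79), and so did HSD17B4 and CAT (r = -0.64). The other 7 pairs lay between -0.35 and 0.57. HSD17B4 and CAT deviated from their group means by at most 0.16 and 0.10, so their correlations rest on small differences. Lactating pools 1 and 2 had 4 of the 5 enzymes below their group mean and lactating pools 3 and 4 had 4 of 5 above it. In non-lactating pool 1, 4 of 5 were below, and the deviation was -1.06 for AMACR and -0.72 for LOC100519193. Some of the deviations counted here were very small, such as -0.0021 for CAT in non-lactating pool 1 and 0.0049 for HSD17B4 in lactating pool 1. These correlations describe 8 pools that share arrays and RNA quality, and no test was attached to them.

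The deviations of the same 2 genes also went with the 3′ minus 5′ value of the pool. Those of HSD17B4 went with it in the opposite direction. Over the 8 pools the correlation of deviations was -0.91 for LOC100519193 and -0.84 for AMACR, beside -0.42 for ACAA1, -0.36 for CAT and 0.62 for HSD17B4. Without non-lactating pool 1 it was -0.81 for LOC100519193, -0.71 for AMACR, 0.71 for HSD17B4, -0.53 for CAT and -0.43 for ACAA1. With the 3′ minus 5′ value as a covariate in limma, LOC100519193 was higher in lactating pools by 0.39 ± 0.17 and did not pass (adjusted p = 0.484). AMACR turned to -1.07 ± 0.40 (adjusted p = 0.433), ACAA1 was 0.23 ± 0.18 and CAT -0.13 ± 0.11, while HSD17B4 turned to 0.10 ± 0.12. Since the mean 3′ minus 5′ value did not overlap between the groups, the covariate and the group share part of their variation, and lactation and RNA quality cannot be told apart here.

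**Figure D2:**
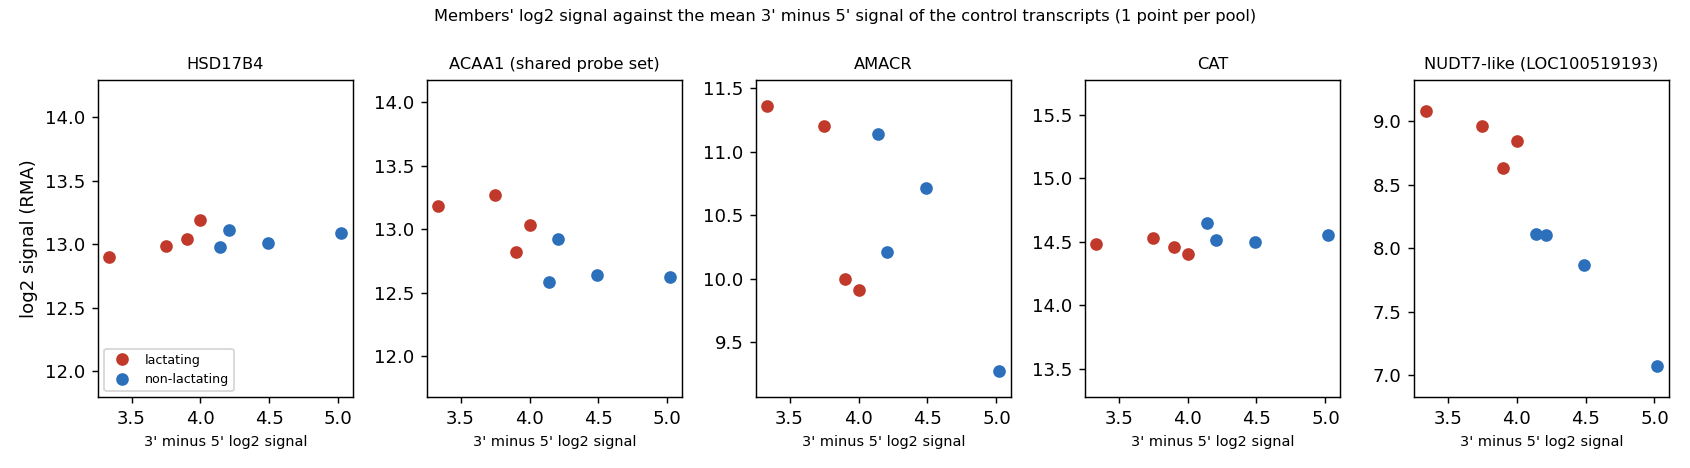
Log2 signal of each enzyme (vertical axis, each panel spanning the same number of log2 units) against the mean 3′ minus 5′ log2 signal of the control transcripts (horizontal axis), 1 point per pool. LOC100519193 is generally lower in pools with a larger 3′ minus 5′ value within both groups. AMACR is lowest in non-lactating pool 1 at 5.02. HSD17B4 and CAT vary little on this scale, though the deviations of HSD17B4 correlate with the 3′ minus 5′ value at 0.62.

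Among 8140 genes, those whose deviations ran most like those of LOC100519193 were LOC100525943, annotated as similar to presenilin-2 (r = 0.99), and CIB1, a calcium and integrin binding protein (r = 0.99). CIB1 also rose in lactating pools, by 0.59 ± 0.13 (limma adjusted p = 0.0279). For HSD17B4 they were SRSF5, a splicing factor (r = 0.99), which fell by 0.60 ± 0.14 in lactating pools (limma adjusted p = 0.0352), and LOC100513261 (r = 0.99). For AMACR they were POU3F1 (r = 0.99), a dim probe set whose deposited title names another POU gene, and STBD1, a glycogen-binding protein (r = 0.98). For ACAA1 they were CD5L, whose deposited title names another gene, and SFN (r = 0.98 each). CAT was matched least closely, by LOC100158003 (r = 0.95) and ARPP21 (r = 0.94). The top correlations over 8 pools among so many genes are high for any gene, so these are a description only.

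No probe set carried the symbol CROT, but a search of the array's descriptions found 1 probe set, LOC100521030, described as moderately similar to human carnitine O-octanoyltransferase, which passes shortened acyl chains to carnitine. It is no member by the rule and was looked up because CROT was listed. Its signals were 11.85, 12.01, 11.84 and 11.26 in lactating pools, against 11.28, 11.44, 11.48 and 11.28 in non-lactating pools. The first 3 lactating pools lay above all non-lactating ones and lactating pool 4 lay below them. The difference was 0.37 ± 0.15 and did not pass (limma adjusted p = 0.167). The deposited alignment places it on chromosome 9, 86944446 to 86967143, minus strand. The same search for EHHADH found 0 probe sets.

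The other steps of the organelle were covered by a list of 51 further peroxisomal genes, of which 27 were measured. Of the 27, 2 rose and none fell, beside 6.13% of all genes higher. Differences were positive for 21 of the 27, beside 52.6% of all genes, and the median was 0.14 (range -0.26 to 1.01), beside 0.01 for all genes. NUDT19 is a coenzyme A diphosphatase of the same Nudix family, listed here as peroxisomal, though its deposited title reads mitochondrial-like. It had 9.45, 9.68, 9.01 and 8.95 in lactating pools, against 8.62, 8.32, 7.72 and 8.39 in non-lactating pools. The groups did not overlap, and NUDT19 rose by 1.01 ± 0.21, or 2.02-fold (limma adjusted p = 0.0256), passing with 5 of 8 pools left out in turn. It did not pass when lactating pool 1, lactating pool 2 or non-lactating pool 4 was left out (adjusted p of 0.0519, 0.0546 and 0.0546). With the 3′ minus 5′ value as a covariate its difference was 1.62 and did not pass (adjusted p = 0.156).

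ECH1, a dienoyl-CoA isomerase for unsaturated chains found in peroxisomes and mitochondria, had 9.42, 9.64, 9.67 and 9.55 in lactating pools, against 8.74, 9.28, 9.20 and 9.11 in non-lactating pools. All lactating pools lay higher, and ECH1 rose by 0.49 ± 0.12, or 1.41-fold (limma adjusted p = 0.0396). The call was lost in 6 of the 8 fits that leave out 1 pool, and held without lactating pool 1 or non-lactating pool 2. It was also lost with the 3′ minus 5′ value as a covariate, where the difference was 0.22 (adjusted p = 0.667), and with cyclic loess normalisation (0.45, adjusted p = 0.0628).

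ACOX2, the oxidase that starts the cycle for branched chains and bile acid intermediates, had 11.72 to 12.47 in lactating pools, against 11.62 to 12.20 in non-lactating pools. The groups overlapped, pool 4 was the lowest of each, and the difference was 0.07 ± 0.17 (limma adjusted p = 0.876). SCP2, whose long form is the thiolase for branched chains, had 13.92 to 14.12 in lactating pools, against 13.95 to 14.04 in non-lactating pools. These overlapped too, with a difference of 0.02 ± 0.07 (limma adjusted p = 0.919).

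PEX11A, a membrane protein that promotes peroxisome division, had 9.02, 9.25, 8.92 and 8.55 in lactating pools, against 8.75, 8.10, 7.43 and 7.74 in non-lactating pools. Non-lactating pool 1 lay among the lactating pools and the other 3 lay below them. The difference of 0.93 ± 0.26 did not pass (limma adjusted p = 0.0584) and was 1.17 without non-lactating pool 1, where it passed with an adjusted p of 0.0364. ABCD3, a transporter of acyl-CoA into peroxisomes, was listed but no probe set carried that symbol.

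**Figure D3:**
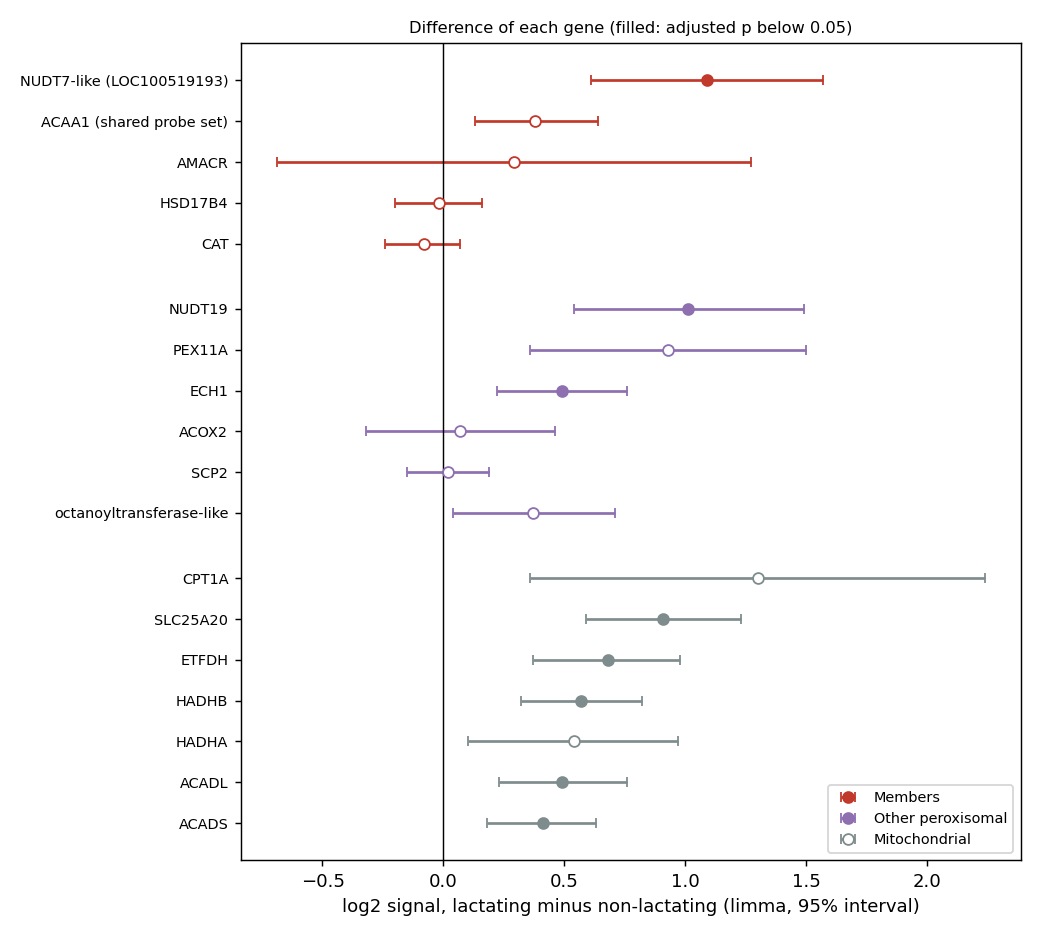
Difference in log2 signal, lactating minus non-lactating pools (horizontal axis), with 95% intervals from limma for the 5 enzymes, named other peroxisomal genes with the octanoyltransferase-like probe set, and named mitochondrial genes. Filled points have an adjusted p below 0.05: LOC100519193 at 1.09, NUDT19 at 1.01, ECH1 at 0.49 and 5 mitochondrial genes.

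The mitochondrial pathway, which oxidises the bulk of long-chain fatty acids after transfer through carnitine, was measured alongside by 15 of 19 listed genes. Of these, 5 rose and none fell, beside 6.13% of all genes higher. All 15 differences were positive, beside 52.6% of all genes, and the median was 0.32 (range 0.02 to 1.30). The smallest were no larger than their SE: 0.02 ± 0.09 for ETFB, 0.04 ± 0.09 for HADH and 0.08 ± 0.09 for ACADM. The signs of these are therefore not settled. The 5 were SLC25A20, HADHB, ETFDH, ACADL and ACADS. SLC25A20, the carnitine-acylcarnitine carrier of the inner membrane, had 9.92, 10.18, 10.34 and 10.03 in lactating pools, against 9.25, 9.58, 8.95 and 9.05 in non-lactating pools. With no overlap it rose by 0.91 ± 0.14 (limma adjusted p = 0.0127) and passed with each of the 8 pools left out in turn.

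HADHB, the thiolase subunit of the trifunctional protein, rose by 0.57 ± 0.11 (limma adjusted p = 0.0202), and its other probe set by 0.93. ETFDH, which passes electrons from the dehydrogenases to ubiquinone, rose by 0.68 ± 0.14 (limma adjusted p = 0.0227). The long-chain dehydrogenase ACADL rose by 0.49 ± 0.12 and the short-chain dehydrogenase ACADS by 0.41 ± 0.10 (limma adjusted p = 0.0371 and 0.0418). With 1 pool left out in turn, HADHB passed in 4 of 8 fits (not without lactating pools 3 and 4 or non-lactating pools 1 and 4) and ETFDH in 6 (not without non-lactating pools 1 and 4). ACADL passed in 2, those without lactating pool 1 and non-lactating pool 3, and ACADS in 1, that without non-lactating pool 3. With the 3′ minus 5′ value as a covariate none of the 5 passed: the differences were 0.93 for SLC25A20, 0.35 for HADHB, 0.45 for ETFDH, 0.22 for ACADL and 0.28 for ACADS, with limma adjusted p-values of 0.328 to 0.654. With cyclic loess ACADL (0.43, adjusted p = 0.0675) and ACADS (0.34, adjusted p = 0.0832) did not pass. CPT1A, which forms the carnitine esters, had 10.12, 11.53, 12.09 and 10.00 in lactating pools, against 9.44, 9.40, 9.98 and 9.73 in non-lactating pools. Its groups did not overlap, but lactating pools 2 and 3 stood far above 1 and 4, and the difference of 1.30 ± 0.42 did not pass (limma adjusted p = 0.0961). HADHA, the other subunit of the trifunctional protein, was 0.54 ± 0.19 (limma adjusted p = 0.133). No test was made between the peroxisomal and mitochondrial lists, so their medians and counts are given side by side only.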

How the data were processed

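Liver RNA in 8 pools was hybridised to 8 Affymetrix Porcine arrays. The authors deposited log2 signals per probe set, made with Affymetrix Expression Console and RMA per the submitters' processing notes, without version numbers. A second deposited set of log2 values differs by at most 0.005. The deposited log2 ratio of the authors was not used for any result. Of 24123 probe sets, 124 controls were left out. Symbols were updated through the Sscrofa11.1 gene table for 9065 probe sets by Entrez identifier and 30 by RefSeq transcript, 2135 kept the deposited symbol, 326 named several genes and 12443 none. The brightest probe set stood for a gene. Signals lay between 2.75 and 15.22. The number of arrays limits the precision, and no detection calls or scan dates were used.

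Lactating minus non-lactating differences were fitted with limma 3.58.1 (lmFit, eBayes) in R 4.3.3, 2-sided, over 23999 probe sets with Benjamini-Hochberg adjustment. On simulated data for the same comparison and probe sets, 48% of 100 sets changed by 0.5 and 91% of 100 changed by 1.0 on the log2 scale were recovered, with 8 false calls. The simulated noise was independent for each probe set and array and held no RNA quality difference between the groups. The recovery and false calls in the measured data may therefore differ. Nothing in the labels says that pools of equal number belong together, so they were not paired. The same-numbered pools' deviations correlated at 0.24, 0.09, 0.07 and 0.22, beside -0.23 to 0.24 for differently numbered pools of the 2 groups.

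Named genes were the members, every gene past the threshold in the other peroxisomal and mitochondrial lists, ABCD3, SCP2, ACOX2, PEX11A, HADHA, CPT1A, SLC25A20 and 1 gene that is not reported here whatever their values, and the 2 genes most like each member. LOC100521030, ETFB, HADH, ACADM and the markers named fall outside this rule and were chosen after their values were seen. The members and lists were chosen with earlier results of these data known. Alternatives were leaving out each pool, the replicate number as a block, the second value table, cyclic loess, leaving out the dimmest 25% of probe sets (below 4.91), an intensity trend with robust eBayes, the 3′ minus 5′ value as a covariate, the equal-variance test with Benjamini-Hochberg adjustment, and the probe set with the smallest p.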

Additional observations from a re-analysis of the deposited data

Results flagged for a closer look

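ACOX2, the oxidase for branched chains, had 1 pool far from the rest of its group: non-lactating pool 4 was at 11.62, while the other 3 non-lactating pools lay between 12.13 and 12.20. The gap to the nearest pool was 0.88 of the group's whole range, above Dixon's 95% critical value for 4 samples. In all, 34 groups of pools were examined and 1 stood out, which is within what chance gives at about 1 group in 20.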

How the results depend on the processing

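Of the 5 enzymes, 1 was higher in lactating pools, and this count was 0 to 2 with each pool left out in turn (2 without lactating pool 1, 0 without lactating pool 3, lactating pool 4 or non-lactating pool 4). The count of changed probe sets, 1643 with all pools, was 406 (without non-lactating pool 1) to 1424, that of other peroxisomal genes higher 0 to 3 (0 without lactating pool 2 or non-lactating pool 4) and that of mitochondrial genes higher 1 to 5 (1 without non-lactating pool 1 or pool 4). Cyclic loess left 1 other peroxisomal and 3 mitochondrial genes higher. With the 3′ minus 5′ covariate limma called 0 of the 5 enzymes, 0 other peroxisomal genes, 0 mitochondrial genes and 0 probe sets, and 2474 probe sets, 2 of them members, had an unadjusted p below 0.05. The equal-variance test with Benjamini-Hochberg adjustment likewise called 0 in each of these, with 4964 probe sets and 2 members below 0.05 unadjusted. LOC100519193 has 1 probe set, so the choice of probe set leaves it as it is; it was higher in all 15 other alternatives and passed in 10 of them, with an adjusted p of 0.1 in the equal-variance test.

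Signs turned for HSD17B4, AMACR, ACOX2 and SCP2, none of which passed the test. Without a pool, HSD17B4 was 0.03 (lactating 4) and 0.003 (non-lactating 2), AMACR -0.07 (non-lactating 1, in a range of -0.07 to 0.56), ACOX2 -0.06 (lactating 2) and -0.07 (non-lactating 4, in a range of -0.07 to 0.19), and SCP2 -0.0022 (lactating 3) and -0.02 (lactating 4). With cyclic loess SCP2 was -0.06 and ACOX2 -0.01. With the covariate HSD17B4 was 0.10, AMACR -1.07 and SCP2 -0.02. The cause of these changes was not tested.

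With the replicate number as a block, 1790 probe sets passed, and 1 enzyme, 3 other peroxisomal and 6 mitochondrial genes were higher. LOC100519193 was 1.09 with an adjusted p of 0.0171, and PEX11A (0.93, adjusted p = 0.0354) and HADHA (0.54, adjusted p = 0.0319) then passed. The correlations of deviations, 0.07 to 0.24 for same-numbered and -0.23 to 0.24 for differently numbered pools, do not settle whether the numbers pair the pools.

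Pools of 2 sows, 4 per group, limit the precision, and probe sets of 1 per gene leave no second reading of any of the 5 enzymes.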

Other observations

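Among the peroxisomal genes with several probe sets, PEX19 and CRAT are given here. For PEX19, a receptor for peroxisomal membrane proteins, the brightest probe set differed by 0.06, while another had 6.57, 6.75, 6.41 and 6.66 in lactating pools, against 5.80, 6.11, 6.13 and 6.15 in non-lactating pools, with no overlap and a rise of 0.55 ± 0.11 (limma adjusted p = 0.0198). A further PEX19 probe set differed by 0.09 (limma adjusted p = 0.6). For CRAT, carnitine acetyltransferase, the brightest probe set was 0.41 higher in lactating pools (limma adjusted p = 0.0504) and another that carries the symbol was -0.40 (limma adjusted p = 0.081). The deposited alignment places the first on chromosome 1 and the other on chromosome 8, so they may not measure the same transcript. Both genes fall outside the rule for named genes and were chosen after their values were seen.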
